A study of Homo sapiens with 12 samples.

Results

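Cadherins and protocadherins are described here as the genes whose symbol names a cadherin (CDH), desmoglein (DSG), desmocollin (DSC) or protocadherin (PCDH). Of 60623 genes in the deposited count table, 99 fitted after 1 gene on a sex chromosome was set aside. They were 5 type I cadherins, 13 type II cadherins, 5 atypical cadherins, 7 desmosomal cadherins, 10 non-clustered protocadherins, and 16 alpha, 19 beta and 24 gamma protocadherin genes.

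Cadherins are calcium-dependent adhesion proteins of the cell surface. The classical cadherins bind their like on the neighbouring cell and hold on to actin through the catenins, and the desmosomal cadherins hold on to keratin filaments through plakoglobin, plakophilins and desmoplakin. E-cadherin (CDH1) is the cadherin of epithelia and N-cadherin (CDH2) that of many mesenchymal and neural cells, and a move from the first to the second is the textbook mark of the epithelial-mesenchymal transition (EMT). Protocadherins are related proteins, many of them encoded in 3 neighbouring clusters (alpha, beta and gamma). In the alpha and gamma clusters each gene has a variable first exon with its own promoter.

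The libraries came from A549, an established human lung adenocarcinoma line, infected with lentivirus and kept in hygromycin at 200 ug/ml for 72 h, also for the controls. The control line V carried the vector alone. The line WT carried wild-type AHR with an HA tag, and the lines SA and SD carried the tagged protein with S489A and S489D, each driven by the EF1a promoter. AHR, the aryl hydrocarbon receptor, switches on genes when it binds a ligand, and S489 is the serine that the study describes as a target of the kinase PLK1. S489A cannot be phosphorylated and S489D was made to mimic the phosphorylated form. The labels give 3 biological replicates for each line, or 12 libraries in all. As there was 1 line for each construct, what the construct did and what else set a line apart cannot be told apart.

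The libraries held between 7844045 and 11765576 expected counts, so that a count of 0 allows up to 0.255 to 0.382 CPM (counts scaled to the library total and its TMM factor), which covers counting error only. AHR was at 65.7 to 74.4 CPM in the V libraries and at 201 to 287 CPM in the 9 libraries of the AHR lines, which is the direction the labels give. Of the epithelial keratins, KRT8, KRT18 and KRT7 were abundant in all libraries, while KRT19 was at most 0.536 CPM and EPCAM at most 1.74 CPM. The alveolar type II markers SFTPA1, SFTPB, SFTPC, NKX2-1 and LAMP3 were at most 0.380 CPM in each library and NAPSA reached 4.50 CPM. In bulk RNA, fewer cells that express a gene and less of its RNA per cell cannot be told apart.

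The members together took between 0.0491% and 0.0637% of the counts of a library. CDH1, DSG2 and PCDH9 accounted for 69.8% to 71.6% of the members' counts in the V libraries and for 62.9% to 66.3% in the libraries of the 3 AHR lines. Of the 99 members, 9 were at 0 in all 12 libraries (CDH13, DSC1, DSG1, PCDH8, PCDH15, PCDH17, PCDH20, PCDHB1 and PCDHB19P), and 31 had enough counts to be tested in at least 1 comparison. The tested members were 3 type I, 4 type II, 1 atypical, 3 desmosomal and 4 non-clustered genes, with 7 alpha, 1 beta and 8 gamma genes.

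Levels of different genes were compared per length, as CPM per kb of annotated exon. This length joins the exons of all annotated transcripts of a gene, and the transcripts present can be shorter, so the order depends on it. In CPM, CDH1 and DSG2 were alike in V (169.5 ± 8.94 and 169.3 ± 3.43). PCDH9 (92.0 ± 6.63 CPM) was above CDH24 (22.4 ± 1.64 CPM) there. In the V line, CDH1 was highest at 27.9 ± 1.47 (SD, n = 3), followed by desmoglein 2 (DSG2), the desmoglein of simple epithelia, at 17.8 ± 0.361. The type II cadherin CDH24 was at 5.99 ± 0.437, CDH2 at 4.08 ± 0.293, the gamma protocadherin PCDHGC3 at 3.02 ± 0.200 and PCDH9 at 2.97 ± 0.214 CPM per kb. The beta gene PCDHB2 was at 2.22 ± 0.257, the alpha gene PCDHAC2 at 1.58 ± 0.138, PCDHGB5 at 1.48 ± 0.342 and PCDHA12 at 0.944 ± 0.406 CPM per kb. Each of the first 4 was above the next in all V libraries, whereas the ranges of PCDHGC3 and PCDH9 and those of PCDHAC2 and PCDHGB5 overlapped. The highest atypical cadherin, CDH23, known from the tip links of hair cells, was at 0.238 ± 0.026 CPM per kb.

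**Figure D1:**
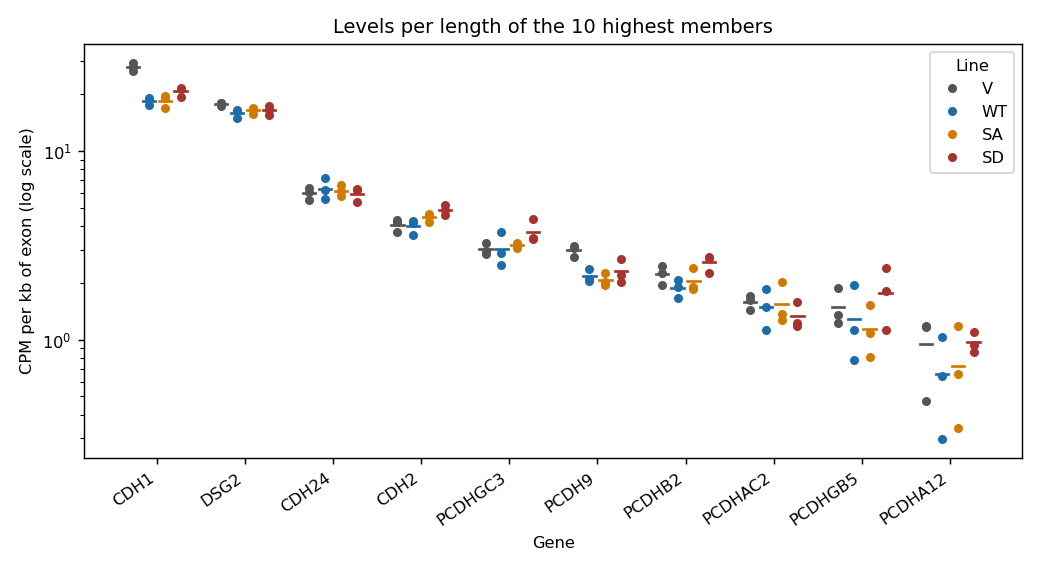
Level per length (CPM per kb of exon, log scale) of the 10 members that were highest in V, with 1 point for each library and a line at the mean of the 3 libraries of each line. CDH1 stands highest in all lines and its V points lie above those of the AHR lines, while the CDH24 points of the 4 lines overlap.

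How the counts of the clustered genes were made bears on all values of these genes. Each alpha or gamma transcript joins its own variable exon to constant exons that the genes of the cluster share, and RSEM divides the reads of such shared stretches between the genes. The first constant coding exon of each cluster is shown for this reason, from GRCh38 with GENCODE v44, on the plus strand and 5′ to 3′, with capitals at the bases that differ between both exons. The alpha exon at chr5:140978949-140979007 was found in transcripts of 15 alpha genes, and the gamma exon at chr5:141494807-141494865 in transcripts of 22 gamma genes.
alpha constant exon: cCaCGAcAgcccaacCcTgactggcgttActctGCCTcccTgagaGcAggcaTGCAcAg
gamma constant exon: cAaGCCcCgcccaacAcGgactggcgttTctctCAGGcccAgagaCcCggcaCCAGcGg

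Both exons are 59 bases long and identical at 39 of these (66.1%), so a stretch of 50 bases inside one of them names the cluster and not the gene. Of all 50-base words in the exons of an alpha gene, a median of 51.4% also lay in another member, against 43.7% for gamma genes, 14.6% for beta genes without the pseudogenes, and 0% for the 40 members outside the clusters, of which the highest shared 0.494%. Values that were not whole numbers were found for 14 of 16 alpha genes, 21 of 22 gamma genes and 9 of 16 beta genes without the pseudogenes, and for 0 of the 40 members outside the clusters. Pseudogenes were left out by symbol alone, so the 16 alpha genes include PCDHA14, of whose 50-base words 100% lay in another member. Single clustered genes are therefore uncertain. A cluster sum does not depend on how reads were divided within the cluster, but it can depend on the division with other genes. Of the 50-base words of the beta pseudogenes PCDHB17P and PCDHB18P, 100% lay in some other gene, and 21.1% and 12.6% in another member.

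Against the V line, E-cadherin and PCDH9 were lower in all 3 AHR lines, PCDHA5 was lower in WT, and CDH7 was higher in SD. The comparisons of WT, SA and SD with V use the same 3 V libraries, so their values are not independent of each other. By edgeR's quasi-likelihood test with Benjamini-Hochberg adjustment over all genes tested, 3 of 28 tested members passed an adjusted p of 0.05 in WT (all lower), beside 5.24% of all genes tested, with 2.93% lower. In SA, 2 of 29 passed (both lower), beside 7.17% of all genes, with 3.29% lower. In SD, 3 of 31 passed, 2 lower and 1 higher, beside 5.41% of all genes, with 2.49% lower and 2.92% higher. The median log2 fold change of the tested members against V was −0.02 for WT, −0.03 for SA and 0.03 for SD, beside 0.00 for all genes in each.

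**Figure D2:**
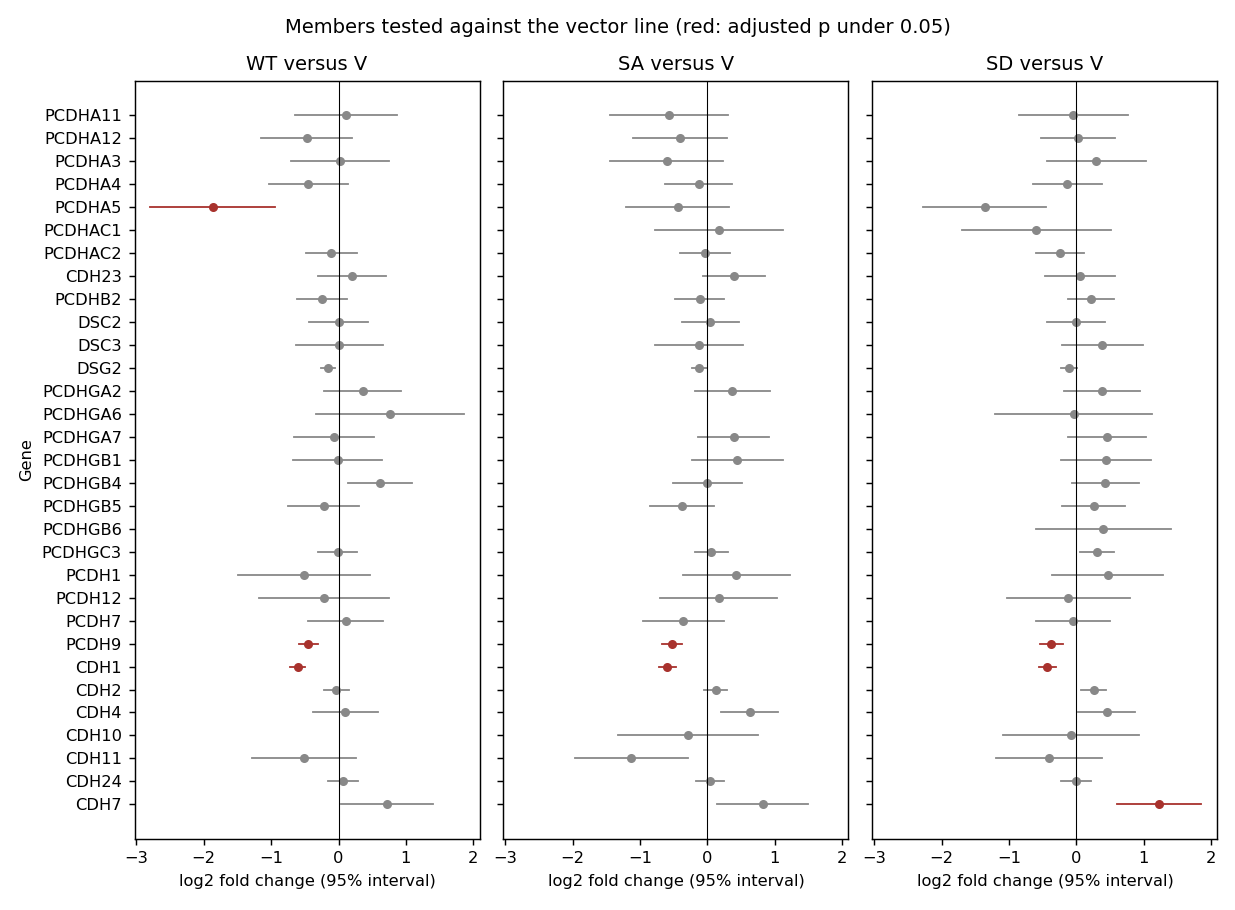
Log2 fold change against V (points) with its 95% interval (lines, not adjusted for the number of genes) for the members tested in WT, SA and SD, with genes that passed an adjusted p of 0.05 in red. CDH1 and PCDH9 are red and left of 0 in all 3 panels, PCDHA5 is red in WT and CDH7 in SD.

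CDH1 (chr16:68737292-68835541, plus strand, GRCh38) was at 179, 169 and 161 CPM in the V libraries. It was at 116, 113 and 107 CPM in WT, at 118, 116 and 103 CPM in SA, and at 130, 132 and 117 CPM in SD. All 9 libraries of the AHR lines lay below all 3 V libraries. The log2 fold change against V was −0.60 ± 0.05 for WT (SE, adjusted p = 7.74e-09), −0.60 ± 0.06 for SA (adjusted p = 1.18e-07) and −0.43 ± 0.06 for SD (adjusted p = 3.84e-05). With any 1 library left out, the adjusted p in these comparisons was at most 0.00134. An antisense gene, ENSG00000260798, overlaps 5.71% of the exon bases of CDH1, and with no strand setting of the counting given in the sources used here, its reads and those of CDH1 cannot be told apart there.

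Between the AHR lines, CDH1 gave a log2 fold change of 0.17 for SD against WT (95% interval 0.04 to 0.30, adjusted p = 0.279) and of 0.17 for SD against SA (0.02 to 0.31, adjusted p = 0.504), and neither passed. The SD and WT libraries did not overlap, while those of SD and SA did. For WT against SA the interval of the difference was −0.13 to 0.13.

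N-cadherin (CDH2, chr18:27950966-28177130, minus strand) was at 35.9, 36.9 and 32.1 CPM in V and at 36.8, 35.5 and 30.7 CPM in WT. It was at 40.0, 36.0 and 38.7 CPM in SA and at 44.7, 41.6 and 39.1 CPM in SD. The SD libraries lay above all V and all WT libraries, but no comparison passed: the log2 fold change was 0.26 ± 0.09 for SD against V (adjusted p = 0.0954) and 0.28 ± 0.09 for SD against WT (adjusted p = 0.190). For WT against V it was −0.03, with a 95% interval of −0.22 to 0.16.

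The ratio of CDH1 to CDH2, per length of exon, was 7.02, 6.48 and 7.06 in the V libraries. It was 4.46, 4.49 and 4.92 in WT, 4.18, 4.56 and 3.76 in SA, and 4.10, 4.47 and 4.22 in SD. E-cadherin RNA thus exceeded N-cadherin RNA in all 12 libraries, and the ratio was highest in the V libraries. The 3 AHR lines overlapped in this ratio, which is given as a description with no test.

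**Figure D3:**
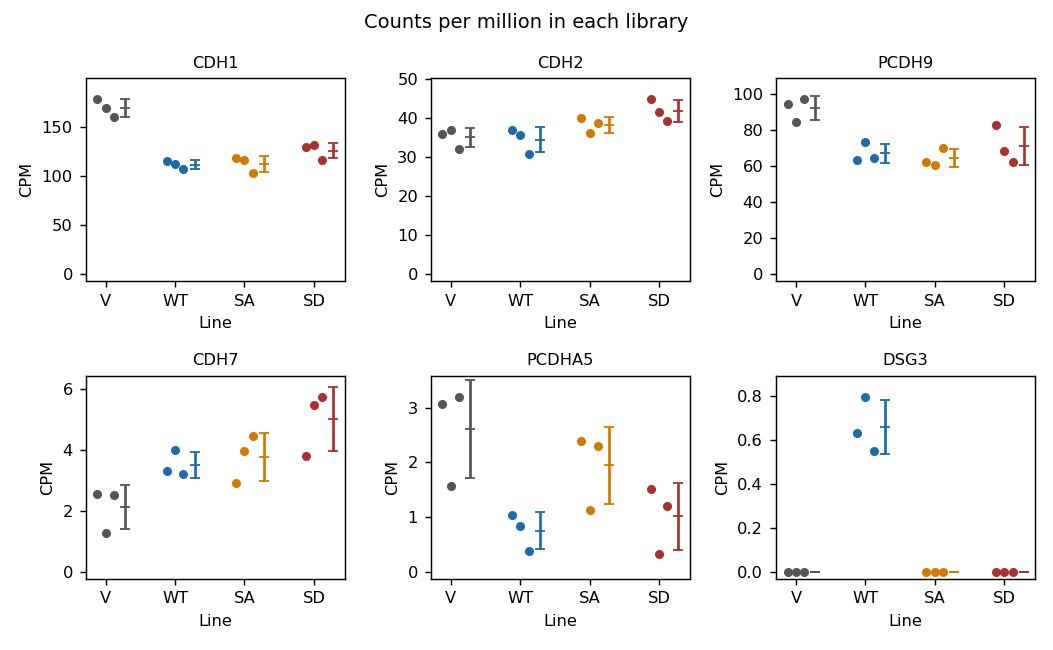
CPM of CDH1, CDH2, PCDH9, CDH7, PCDHA5 and DSG3 in each library (points) with the mean and SD of the 3 libraries of each line beside them. CDH1 and PCDH9 are highest in the V libraries, CDH7 is lowest there, and DSG3 is above 0 in the WT libraries alone.

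The other type I cadherin with enough counts was CDH4 (R-cadherin), which lay at 6.24, 5.73 and 4.21 CPM in V and 6.70, 8.76 and 9.57 CPM in SA. These libraries did not overlap, and the log2 fold change of 0.62 ± 0.21 did not pass (adjusted p = 0.0674). It passed with every gene of at least 1 count tested (adjusted p = 0.0357) and without SA replicate 1 (adjusted p = 0.0297). P-cadherin (CDH3) was under 1 CPM in each library.

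Among the type II cadherins, CDH7 (chr18:65750252-65890337, plus strand) was at 2.56, 1.27 and 2.53 CPM in V and at 3.29, 3.98 and 3.20 CPM in WT. It was at 2.90, 3.95 and 4.43 CPM in SA and at 3.79, 5.47 and 5.72 CPM in SD. All libraries of the AHR lines lay above the V libraries. The log2 fold change against V was 1.23 ± 0.30 in SD (adjusted p = 0.0138), 0.82 ± 0.33 in SA (adjusted p = 0.141) and 0.72 ± 0.33 in WT (adjusted p = 0.250). The SD call rested on 61 counts over the V libraries and was lost without V replicate 2 (adjusted p = 0.0872), SD replicate 2 (0.0728) or SD replicate 3 (0.0689).

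CDH24, a cadherin that binds the catenins and was the most abundant type II member, overlapped between all lines. It was at 22.8, 23.9 and 20.6 CPM in V. The intervals of its log2 fold change against V were −0.16 to 0.29 for WT, −0.17 to 0.25 for SA and −0.23 to 0.22 for SD. CDH11, known from osteoblasts and mesenchymal cells, was at 2.76, 1.70 and 2.11 CPM in V and at 1.0, 1.203 and 0.798 CPM in SA, and its log2 fold change of −1.13 ± 0.41 did not pass (adjusted p = 0.0959).

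PCDH9 (chr13:66302834-67230445, minus strand), a non-clustered protocadherin of the delta family, held 91.7% of the counts of its subgroup. It was at 94.5, 84.5 and 97.0 CPM in V, at 63.4, 73.2 and 64.7 CPM in WT and at 62.5, 60.6 and 70.1 CPM in SA. In SD it was at 83.0, 68.2 and 62.3 CPM, so that SD replicate 1 lay just under the lowest V library. The log2 fold change against V was −0.45 ± 0.07 for WT (adjusted p = 5.35e-05), −0.52 ± 0.07 for SA (adjusted p = 1.36e-05) and −0.37 ± 0.08 for SD (adjusted p = 0.00659). The SD call was lost without V replicate 3 (adjusted p = 0.0542) or SD replicate 2 (0.0539). Between the AHR lines the log2 fold changes were 0.08 (SD against WT), 0.15 (SD against SA) and 0.07 (WT against SA), and none passed (adjusted p = 0.812, 0.682 and 0.877).

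The promoters of PCDH9 and CDH7 were read because both genes passed and the lines differ in AHR, whose binding sites have the core GCGTG. That of PCDHA5, which also passed, is not shown, so no match is claimed for all genes that passed. The letters GCGTG (or CACGC, on the other strand) were looked for in the 250 bases before each RefSeq start (GRCh38.p14), where 73 of the 99 members had an entry. In PCDH9 the match lay 44 to 40 bases before the start, and in CDH7 204 to 200 bases before it. The 30 bases around each match are at chr13:67230363-67230392 on the minus strand and chr18:65750036-65750065 on the plus strand, with the match in capitals. In the deposited table PCDH9 reaches to base 67230445, so that these 30 bases lie inside the gene as counted there.
PCDH9: ggcctgggcagtCACGCcctccctctgggc
CDH7: ggggaaaacaaaGCGTGctcaactccaggg

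These letters were in 32.2% of all 35116 promoters and in 19.8% of the 91 promoters of members. The E-box CAGGTG (or CACCTG), the letters that SNAI and ZEB repressors bind, was in 17.5% of all promoters and in 12.1% of those of members. Of the 37 promoters of tested members, 21.6% had GCGTG or CACGC and 18.9% had the E-box. CDH1 had no entry. A match describes the letters and was not tested as a binding site.

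DSG2 was at 171, 165 and 171 CPM in V and at 155, 157 and 142 CPM in WT. Its libraries in each AHR line lay below those of V, and the log2 fold changes of −0.16 ± 0.05 in WT, −0.12 ± 0.05 in SA and −0.11 ± 0.06 in SD did not pass (adjusted p = 0.0632, 0.184 and 0.313). In WT it passed where at least 10 counts in each library were required (adjusted p = 0.0429). Desmocollin 2 (DSC2) gave log2 fold changes of 0.00 in WT, 0.04 in SA and 0.00 in SD, and desmocollin 3 (DSC3) was at 2.15, 3.18 and 3.16 CPM in V and 3.39, 3.54 and 4.11 CPM in SD (adjusted p = 0.557).

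Desmoglein 3 (DSG3, chr18:31447741-31478702, plus strand), a desmoglein of stratified epithelia, had 5, 9 and 5 counts in the WT libraries and 0 in the 9 others. Over the line this was 0.674 CPM (exact Poisson 95% interval 0.406 to 1.05). With the lower limit of this interval set against a floor of 3 counts over the 3 libraries of a line, it was at least 3.88-fold higher in WT than in V, 4.47-fold than in SA and 4.14-fold than in SD. These counts were under the filter. Where every gene with at least 1 count was tested, DSG3 passed in WT against V (edgeR, adjusted p = 0.0118) and in SD against WT (0.0334). It did not pass in WT against SA (0.0589). As DSG3 was named for these same counts, the fold limits and p-values describe them and are no separate support. PCDH18 had 1, 4 and 1 counts in the SD libraries and 0 in the others. Another 20 members were at 0 in all libraries of some line and above 0 in another, with at most 6.13 counts in a library, which does not show a difference at this depth. They were CDH5, CDH8, CDH12, CDH15, CDH17, CDH18, CDH19, CDH20, PCDH10, PCDHA8, PCDHA9, PCDHA14, PCDHB12, PCDHB17P, PCDHB18P, PCDHGA12, PCDHGB8P, PCDHGB9P, PCDHGC4 and PCDHGC5.

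Of the genes of the desmosomal plaque, to which the desmosomal cadherins are fixed, 6 were tested. Against V, 2 of them fell in WT (beside 2.93% of all genes), 2 in SA (3.29%) and 3 in SD (2.49%), and 0 rose, while 0 passed between the AHR lines. Plakoglobin (JUP), which binds both desmosomal and classical cadherins, was at 155, 156 and 162 CPM in V and at 88.8, 93.8 and 105 CPM in WT. It was at 115, 98.6 and 104 CPM in SA and at 98.5, 93.2 and 111 CPM in SD. No library of an AHR line reached the V range. The log2 fold change against V was −0.72 ± 0.06 for WT, −0.58 ± 0.06 for SA and −0.64 ± 0.06 for SD (adjusted p = 1.17e-09, 1.33e-07 and 1.05e-07).

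Plakophilin 2 (PKP2) was at 15.5, 15.3 and 14.5 CPM in V and at 10.8, 10.3 and 9.83 CPM in WT. It was at 10.8, 11.3 and 10.4 CPM in SA and at 6.68, 6.43 and 9.38 CPM in SD. Against V the log2 fold change was −0.55 ± 0.14 for WT, −0.48 ± 0.14 for SA and −0.998 ± 0.16 for SD (adjusted p = 0.0143, 0.0291 and 0.000216). The WT call was lost without V replicate 1 (adjusted p = 0.0701) or WT replicate 3 (0.0691). In SA the call ended with DESeq2 (0.0608), and also when V replicate 1, 2 or 3 or SA replicate 2 or 3 was left out (adjusted p between 0.0591 and 0.112). Desmoplakin (DSP), which ties the plaque to keratin, was lower in SD (log2 fold change −0.23 ± 0.06, adjusted p = 0.0180), a call that was lost without V replicate 1 or 3 or SD replicate 2 or 3 (adjusted p between 0.0638 and 0.121).

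**Figure D4:**
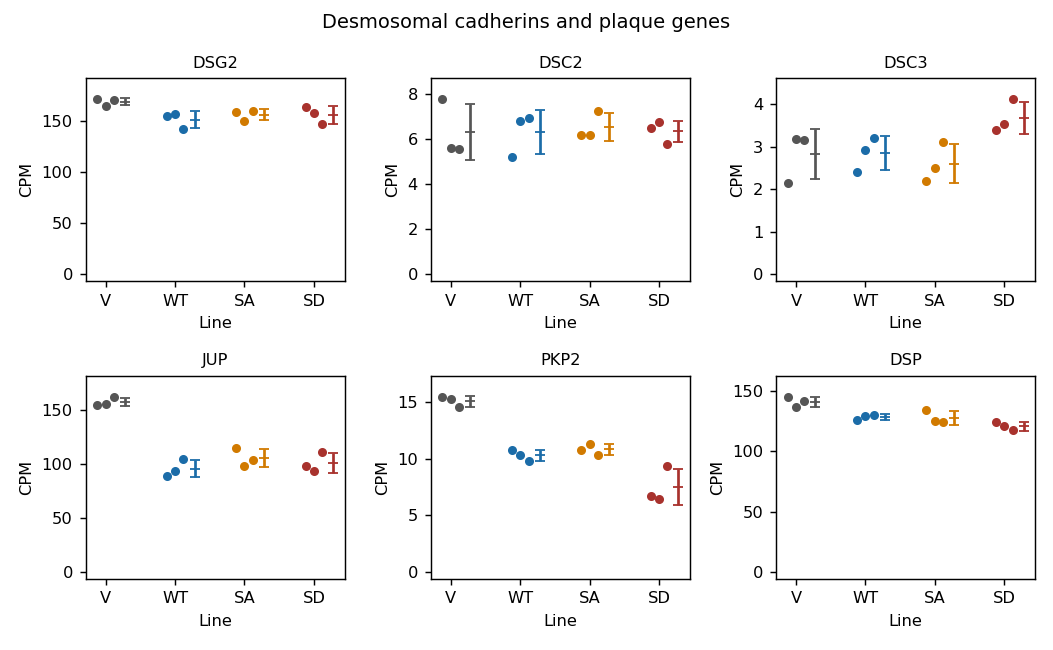
CPM of the desmosomal cadherins DSG2, DSC2 and DSC3 and of the plaque genes JUP, PKP2 and DSP in each library (points), with the mean and SD of the 3 libraries of each line. JUP and PKP2 are lower in all AHR libraries than in the V libraries, and PKP2 is lowest in SD.

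Of 11 tested genes of the adherens list, 0 passed in any of the 6 comparisons by edgeR, beside 0.0803% to 7.17% of all genes tested. The catenins CTNNB1, CTNNA1 and CTNND1 were among those that did not pass. Plakoglobin (JUP), which also binds classical cadherins, was counted with the plaque genes and not in this list. It was lower than V in each AHR line, as given above. Beta-catenin (CTNNB1) was at 235 ± 8.77 CPM in V, with 242 ± 4.27 for WT, 251 ± 4.38 for SA and 250 ± 11.4 for SD. The interval of the log2 fold change against V was −0.09 to 0.12 in WT and −0.17 to 0.05 in SD for alpha-catenin (CTNNA1, adjusted p = 0.825 and 0.612), and −0.12 to 0.06 in WT for p120-catenin (CTNND1, adjusted p = 0.795).

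Of the genes that regulate CDH1 transcription, 12 were tested. Against V, 0 rose and 1 fell in WT (5.24% of all genes passed), 1 rose and 1 fell in SA (7.17%), 1 rose and 1 fell in SD (5.41%), and 0 passed between the AHR lines. SNAI2 (Slug), a repressor of CDH1, was at 1.43, 1.70 and 2.53 CPM in V, at 3.80, 3.80 and 4.09 CPM in WT, at 3.40, 5.15 and 5.76 CPM in SA and at 6.68, 3.00 and 4.20 CPM in SD. It rose in SA (log2 fold change 1.34 ± 0.31, adjusted p = 0.00687) and in SD (1.30 ± 0.34, adjusted p = 0.0197), and stood at 1.04 ± 0.32 in WT (adjusted p = 0.0564). In WT it passed with every gene of at least 1 count tested (0.0354), with at least 10 counts required in each library (0.0207) and without V replicate 3 (0.0441). Leaving out SA replicate 3 ended the SA call (adjusted p = 0.0570), and the SD call was lost without V replicate 1 (0.101), V replicate 2 (0.0801) or SD replicate 1 (0.165). ELF3, an epithelial transcription factor, fell in WT (−0.33 ± 0.06, adjusted p = 0.000232) and SD (−0.37 ± 0.06, adjusted p = 0.000151). In SA it was at −0.17 ± 0.06 (adjusted p = 0.0586), below V in all 3 libraries, and passed where at least 10 counts in each library were required (0.0402) and without V replicate 3 (0.0372) or SA replicate 1 (0.0297). FOXA1, which opens chromatin in epithelia, fell in SA (−0.95 ± 0.23, adjusted p = 0.0109), a call lost without V replicate 2 (0.0611) or SA replicate 2 (0.0625). In WT (4.44, 5.48 and 3.53 CPM) and SD (3.69, 5.145 and 5.54 CPM) it also lay below V (6.04, 7.32 and 6.11 CPM), but did not pass.

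Among 9 tested genes that process or anchor cadherins, 1 passed in SD against WT, beside 0.708% of all genes tested. This was nicastrin (NCSTN), a subunit of gamma-secretase, which was higher in SD (log2 fold change 0.31 ± 0.06, adjusted p = 0.0199). Without WT replicate 1 or 3 or SD replicate 1 or 2 this call was lost (adjusted p between 0.0609 and 0.152). NCSTN, alone of the 9, also passed in SD against V (0.21, adjusted p = 0.0436), beside 5.41% of all genes. It did not pass there with DESeq2 (0.0813), with every gene of at least 1 count (0.0502), or without V replicate 1, 2 or 3 or SD replicate 1 or 2 (between 0.091 and 0.185). Vezatin (VEZT), a protein of adherens junctions, was the only one of the 9 that passed in SA against V, beside 7.17% of all genes. It was lower in SA (−0.23 ± 0.06, adjusted p = 0.0302), but the call did not hold without any 1 of the 6 libraries (adjusted p between 0.0565 and 0.101). Of the wider cadherin superfamily, 1 of 10 tested genes passed in SA against V, beside 7.17% of all genes tested. This was the large cadherin FAT1 (−0.18 ± 0.06, adjusted p = 0.0444). Its call was lost with all 12 libraries in 1 fit (0.0966) and without V replicate 1 or 3 or SA replicate 2 or 3 (between 0.200 and 0.243). Of 13 tested regulators of the protocadherin clusters, such as CTCF and cohesin, 0 passed in any comparison by edgeR, beside 0.0803% to 7.17% of all genes.

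Some markers of cell identity also passed against V, while of the alveolar type II list 1 gene was tested and 0 passed. Of the 5 epithelial markers, 4 were tested against V. In WT 2 of them were lower (beside 2.93% of all genes), in SA 2 (3.29%) and in SD 3 (2.49%). KRT8 and KRT18 were lower in each AHR line, at log2 fold changes of −0.33 and −0.37 in WT, −0.35 and −0.40 in SA and −0.42 and −0.48 in SD (adjusted p at most 3.04e-06). KRT7 was lower in SD against V (−0.24) and against WT (−0.23, adjusted p = 0.0309), and did not pass in WT or SA against V. The summed level of the 5 epithelial markers was 7472 to 7843 CPM in V, against 6352 to 6374 for WT, 6089 to 6297 for SA and 5618 to 5966 for SD. The summed fibroblast list was at 10.2 to 13.7 CPM in V and 5.96 to 10.4 CPM in the AHR lines, of which COL1A1, lower in WT (−0.79) and SA (−0.60), made up most, while COL1A2 and DCN were at 0 in all libraries. The endothelial list summed to at most 0.316 CPM, and the leukocyte list to 21.7 to 28.4 CPM in V and 27.8 to 36.9 CPM in the AHR lines, where CD68, higher in SA (0.36), made up most, with CD3E at 0 and PTPRC at most 0.172 CPM. The part of these markers in the results above was not tested.

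Summed over a cluster, the protocadherins were low in all lines. The 16 alpha genes summed to 35.5, 32.0 and 26.8 CPM in V and to 23.6, 24.4 and 25.2 CPM in WT. They summed to 29.8, 25.9 and 24.5 CPM in SA and to 29.4, 23.4 and 25.9 CPM in SD. The 19 beta genes summed to 12.7 ± 1.5 CPM in V, with 11.1 ± 0.513 for WT, 11.9 ± 1.73 for SA and 15.3 ± 1.55 for SD. The 24 gamma genes summed to 46.8, 42.3 and 43.6 CPM in V and to 53.1, 43.6 and 48.8 CPM in WT. Their sums were 47.6, 45.7 and 47.9 CPM for SA and 64.5, 52.6 and 52.3 CPM for SD. The WT libraries lay below the V libraries in the alpha sum and the SD libraries lay above them in the gamma sum. These sums are descriptions with no test.

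**Figure D5:**
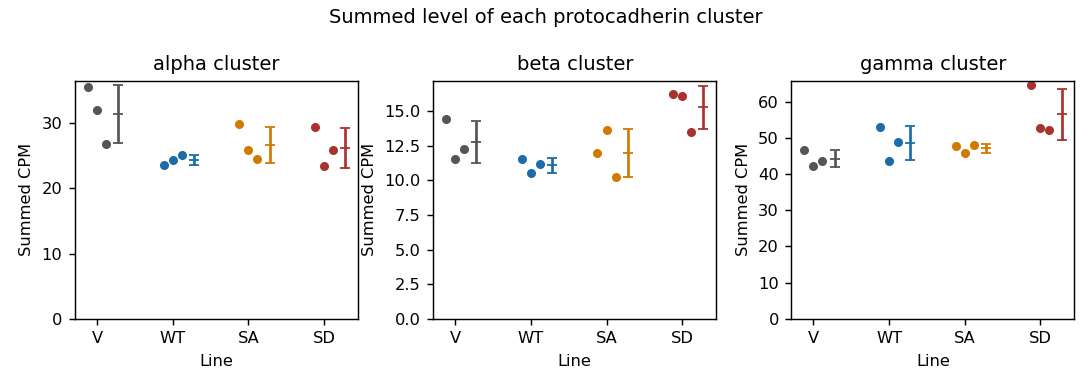
CPM summed over the genes of the alpha, beta and gamma protocadherin clusters in each library (points), with the mean and SD of the 3 libraries of each line. The gamma sum of the SD libraries, 52.3 to 64.5 CPM, lies above that of V, and the beta sum stays under 17 CPM in all libraries.

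A single gene led each cluster. PCDHAC2 held 33.7% of the alpha counts, PCDHB2 70.1% of the beta counts and PCDHGC3 35.8% of the gamma counts over the 12 libraries. PCDHB2 shares 43.9% of its exon bases with the antisense gene PCDHB1-AS1, and reads of both cannot be told apart there. In SD against WT, PCDHB2 had a log2 fold change of 0.45 ± 0.17 and PCDHGC3 of 0.32 ± 0.14, and neither passed (adjusted p = 0.274 and 0.424).

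The alpha gene PCDHA5 (chr5:140821604-141012347, plus strand) was the only clustered member that passed. It had 29.97, 14.8 and 30.3 expected counts in V and 8.14, 9.47 and 3.45 in WT, against 23.96, 13.2 and 26.0 in SA and 15.1, 3.0 and 13.5 in SD. Its log2 fold change against V was −1.86 ± 0.45 in WT (adjusted p = 0.0110), −1.36 ± 0.44 in SD (adjusted p = 0.0745) and −0.44 ± 0.37 in SA (adjusted p = 0.566). In SD it passed where every gene with at least 1 count was tested (adjusted p = 0.0322). The WT call was lost without V replicate 1 (adjusted p = 0.0941), V replicate 3 (0.0746) or WT replicate 3 (0.102). As much as 43.7% of its 50-base words are shared with other members, and 11 of its 12 values were not whole. Another alpha gene, PCDHA2, had 23.2 counts in V replicate 2 and at most 5.53 in any other library.

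Between the lines that carry AHR, no member passed. In SD against WT 0 of 27 tested members were called, beside 0.708% of all genes tested, and 5 had an unadjusted p under 0.05 (CDH1, CDH2, PCDH1, PCDHB2 and PCDHGC3, all higher in SD), beside 10.6% of all genes. In SD against SA 0 of 31 were called, beside 0.22% of all genes, with 3 at an unadjusted p under 0.05, beside 8.52% of all genes. In WT against SA 0 of 29 were called, beside 0.0803% of all genes, with 5 at an unadjusted p under 0.05, beside 7.32% of all genes. DESeq2 called 0 members in each of these comparisons too. The median log2 fold change of the tested members was 0.17 for SD against WT, 0.13 for SD against SA and −0.07 for WT against SA, beside 0.00 for all genes in each.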

How the data were processed

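The 12 libraries (3 from each of 4 A549 lines) were made from poly(A)-selected RNA. Per the methods and processing notes, the authors used Trimmomatic 0.39 for trimming and RSEM for mapping to the GRCh38 transcripts, and the deposited values are expected counts per gene, not normalized. Reads that fit several genes are divided between them by RSEM. A second deposited table holds the authors' log2 fold changes, p-values and FDR for their own comparisons and was not used here.

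Rounded expected counts of the 6 libraries in a pair of lines were fitted with edgeR 4.0.16 in R 4.3.3 (filterByExpr with minimum count 10 and minimum total count 15, TMM, two-sided quasi-likelihood test, Benjamini-Hochberg adjustment over all genes tested, adjusted p under 0.05). Standard errors were derived from the F statistics. The p-values measure the spread between these libraries. The test was also run on counts simulated from the WT and SD libraries with known fold changes, and the outcome is not given here. Levels are CPM with TMM factors, divided by GENCODE v44 exon length where genes are compared. Coordinates are the deposited ones, and the start and end of 65 of the 99 members are the same in GENCODE v44. No library was a copy of another. The main test did not pair libraries by replicate number.

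The alternatives were DESeq2 1.42.0, its size factors, other filters, 1 fit of all libraries, the replicate block and each library left out. Members and gene lists were chosen with earlier results of these data known. The genes named are members that passed, CDH1, CDH2, the 10 highest per length in V, the highest of each subgroup and members at 0 in a line. From the lists, genes that passed and the main catenins are named, and SNAI1, ZEB1 and ZEB2 were added after their values were seen. The other members named (CDH3, CDH4, CDH6, CDH11, DSC2, DSC3, PCDH1 and PCDHA2) were chosen after their values were seen. Figures were drawn with matplotlib 3.10.9.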

Additional observations from a re-analysis of the deposited data

How the results depend on the processing

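The number of members called kept within 1.5 times its value under the alternatives tried, except where every gene with at least 1 count was tested, which gave 1 member (DSG3) in SD against WT in place of 0. Leaving out 1 library gave 2 to 3 members in WT against V, 2 to 3 in SA against V and 1 to 3 in SD against V, where CDH1 alone was called without SD replicate 2, and 0 in the comparisons between AHR lines. PCDH9 in SD against WT lay between −0.051 and 0.17 with 1 library left out, below 0 without SD replicate 1 alone. DESeq2 gave no adjusted p for PCDHA5 in WT against V, so that it called 2 members there. The cluster sums moved by less than 1 SD with each cluster collapsed to 1 row before scaling. Libraries with the same replicate number correlated between −0.0649 and 0.0874 in their deviations from the mean of their line. Among WT, SA and SD alone these correlations were all above 0, from 0.0209 to 0.0874. Libraries with different numbers correlated between −0.0727 and 0.0234 among these lines, and between −0.103 and 0.0843 over all comparisons. Whether same-numbered libraries of these lines shared a replicate effect was not tested. The replicate block called 3 members in WT against V, 2 in SA against V, 3 in SD against V and 0 in the others. Over all genes the block called 245 in place of 105 in SD against WT, 165 in place of 33 in SD against SA, 25 in place of 12 in WT against SA and 507 in place of 774 in WT against V. In SA against V the block called 1345 in place of 1069, and in SD against V 664 in place of 806. Testing all genes that had a count called 252, 153 and 103 genes in the first 3 of these, and the fit of all 12 libraries called 5 in WT against SA. Of 99 members, 31 had enough counts to be tested. In the rest the main test could show no difference, and none is excluded at this depth. CDH6, for example, was under the filter with 23 counts over the V libraries, 6 over WT, 30 over SA and 9 over SD.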
